A study of Homo sapiens with 8 samples.

Results

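The genes described here encode 10 heat shock protein chaperones, HSP90AA1, HSP90AB1, HSP90B1, HSPA8, HSPA5, HSPA9, HSPA4, HSPD1, HSPE1 and HSPH1. They were chosen by name, with earlier results of these data known. They are 10 of the 56303 genes in a count table from MeRIP-seq of SK-N-BE(2), an established human neuroblastoma cell line. In MeRIP-seq, messenger RNA is cut into fragments, one portion is sequenced directly (the input), and an antibody that recognises the RNA modification m6A pulls the IP out of the remainder. METTL14 is a subunit of the enzyme complex that writes m6A, and the comparison asked how its knockdown altered RNA levels and the pull-down. The arms were sh-NC, with a control shRNA, and shMETTL14, with an shRNA that targets METTL14, delivered by lentivirus and followed by puromycin selection of stable cells. Each arm had 2 cultures, and each culture gave 1 IP and 1 input library, 8 libraries in all. The labels do not say whether both shMETTL14 cultures carried the same shRNA or different ones. Nor do they say that the cultures of an arm were grown apart, so the p-values measure only the spread between these samples.

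Molecular chaperones bind unfolded stretches of other proteins and let them fold in cycles driven by ATP. HSP70 proteins take up newly made or damaged chains with the help of J-domain proteins, which deliver the client, and of nucleotide exchange factors, which release it; HSP90 proteins act later, on nearly folded clients such as kinases and hormone receptors. Each family has separate members in the cytosol, the endoplasmic reticulum and the mitochondria, and tumour cells, which make much protein, depend on them heavily.

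The libraries held 32027379 to 47205265 counts each. METTL14 itself was at 51.6 and 50.9 CPM (counts scaled to a common library size) in the sh-NC inputs against 14.3 and 15.3 CPM in the shMETTL14 inputs, a log2 fold change of -1.79 (SE 0.0663, edgeR quasi-likelihood adjusted p = 1.28e-15). All 9 markers of noradrenergic neuroblastoma looked at, DBH among them, were above 1 CPM, with a sum, per library total, of 6122 to 6296 CPM in the sh-NC inputs and 6491 to 6593 CPM in the shMETTL14 inputs, of which MYCN made up 4410 to 4600 CPM. In the input comparison below, 6 of the 9 were higher in shMETTL14 and 3 did not pass: TH went from 33.7 and 37.3 to 72.3 and 73.5 CPM and CHGA from 313 and 320 to 472 and 478 CPM. Of the markers of blood, endothelium, epithelium, fibroblasts and Schwann cells, the fibroblast and Schwann cell genes were the highest, at 271 to 281 CPM in sum in sh-NC and 259 to 261 CPM in shMETTL14; COL1A1 fell from 85.0 and 92.4 to 57.6 and 54.6 CPM, COL3A1 was higher (log2 0.14) and the blood marker CD68 lower (log2 -0.43). HBB was at 0 in all libraries. The part of these marker changes in the chaperone values was not tested.

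Heat shock genes are classically switched on through the heat shock element, repeats of GAA and its complement TTC that bind the factor HSF1, and the chaperones of the endoplasmic reticulum through the ER stress element. Both were searched for, on both strands, in the RefSeq promoter windows of GRCh38.p14, which run from 250 bases before a gene start to 50 bases after it. All 10 genes matched the table, with 14 windows. The heat shock element was taken as 3 perfect units, TTCNNGAANNTTC or GAANNTTCNNGAA. It occurred in 172 of all 35116 windows (0.49%), and in windows of HSP90AA1, HSP90AB1, HSPA8 and HSPD1. The ER stress element, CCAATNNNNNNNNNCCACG or its complement, occurred in 27 windows (0.0769%), and in those of HSP90B1 and HSPA5, both of which encode proteins of the endoplasmic reticulum. The matches are shown because the ER stress element fell, among the 10 genes, in the windows of the ER chaperones alone. Each is printed 5′ to 3′ on the strand of the gene, with the fixed letters of the motif in capitals.
HSP90AA1, chr14:102087115-102087137, minus strand: ggttcTTCcgGAAggTTCgggag
HSP90AB1, chr6:44247773-44247795, plus strand: gcaggTTCtgGAAgaTTCatggg
HSP90AB1, chr6:44247826-44247848, plus strand: gattgTTCtgGAAgcTTCtggat
HSPA8, chr11:123062349-123062371, minus strand: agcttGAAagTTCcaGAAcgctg
HSPA8, chr11:123062174-123062196, minus strand: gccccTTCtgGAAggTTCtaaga
HSPD1, chr2:197500063-197500090, minus strand: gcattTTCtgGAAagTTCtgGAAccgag
HSP90B1, chr12:103930211-103930239, plus strand: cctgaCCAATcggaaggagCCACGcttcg
HSP90B1, chr12:103930316-103930344, plus strand: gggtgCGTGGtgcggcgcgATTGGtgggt
HSPA5, chr9:125241386-125241414, minus strand: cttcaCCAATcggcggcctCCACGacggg

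Distances are counted from the start whose window held the match, since HSP90AA1 has 2 windows and HSP90AB1 has 3. The motif began 88 bases before that start in HSP90AA1, 165 and 112 bases before it in HSP90AB1, and 230 and 55 bases before it in HSPA8. For HSPD1 it began 245 bases before the inner of the 2 starts. All matches of the heat shock element lay inside the RefSeq span of their gene, downstream of its outermost end on the 5′ side. In HSPD1 a pair of overlapping matches formed 4 consecutive units. The second HSP90B1 match, 89 bases before the start, was on the opposite strand, and that of HSPA5 began 66 bases before its start. HSPD1 and HSPE1 lie head to head on chromosome 2: in RefSeq 104 bases separate the outer HSPD1 start from the HSPE1 start. In the annotation of the counts the 2 genes share 281 exon bases. The printed HSPD1 sequence begins 289 bases from the HSPE1 start, outside the HSPE1 window. The windows of HSPA9, HSPA4, HSPE1 and HSPH1 did not hold these letters. The matches describe the sequence, and no binding was measured here.

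All 10 genes were expressed in every library, and together they took 1.24 and 1.21% of the counts of the sh-NC inputs and 1.33% of those of both shMETTL14 inputs. Divided by the merged length of all annotated exons of a gene, the input levels ran in the same order in both arms. These lengths ran from 1977 bases in HSPE1 to 8390 in HSPH1. The transcripts expressed can be shorter, to a different degree in each gene, so the order and ranks of genes depend on the lengths used. The comparison of arms within a gene does not. HSP90AB1, the constitutive cytosolic HSP90, came first, at 1430 and 1399 CPM per kb in sh-NC against 1663 and 1667 CPM per kb in shMETTL14, which placed it at rank 22 among 22245 genes tested. HSPA8, the constitutive cytosolic HSP70, followed at 423 and 408 CPM per kb in sh-NC against 413 and 416 in shMETTL14. Those ranges did not overlap those of HSP90AB1 or of HSP90AA1 in either arm.

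The inducible cytosolic HSP90, HSP90AA1, had 383 and 363 CPM per kb in sh-NC against 403 and 393 in shMETTL14. HSP90B1, the HSP90 of the endoplasmic reticulum, had 363 and 351 CPM per kb in sh-NC against 398 and 390 in shMETTL14. These neighbours in the order were separate in sh-NC by a narrow margin and overlapped in shMETTL14. HSPA5 (BiP), the HSP70 of the endoplasmic reticulum, stood at 157 and 153 CPM per kb in sh-NC against 167 and 168 in shMETTL14, and HSPA9 (mortalin), the mitochondrial HSP70, at 154 and 146 in sh-NC against 136 and 137 in shMETTL14. That pair overlapped in sh-NC and was separate in shMETTL14.

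HSPD1 and HSPE1, which encode the HSP60 barrel of the mitochondrial chaperonin and its HSP10 lid, had 109 and 107 and 80.2 and 80.3 CPM per kb in sh-NC. The last places went to the HSP110 family, large HSP70 relatives that act as nucleotide exchange factors. HSPA4 stood at 75.2 and 71.0 CPM per kb in sh-NC, and HSPH1 was far lower than the others, at 13.4 and 12.0 CPM per kb in sh-NC. HSPH1 had rank 4023, the other 9 genes ranks 22 to 583.

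**Figure D1:**
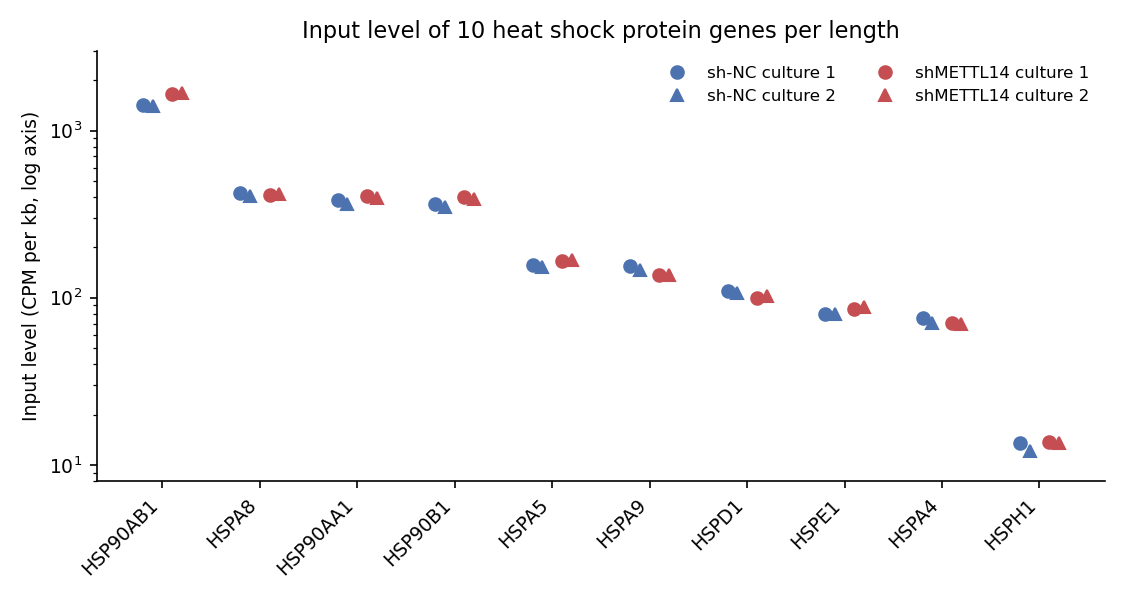
Input level of the 10 chaperone genes in each of the 4 input libraries, in CPM per kb of exon on a log axis, with circles for culture 1 and triangles for culture 2 of each arm. The order from HSP90AB1 to HSPH1 is the same in sh-NC (blue) and shMETTL14 (red), with HSP90AB1 at 1399 to 1667 and HSPH1 at 12.0 to 13.6 CPM per kb.

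In the input libraries 5 of the 10 genes were higher in shMETTL14, 2 were lower and 3 did not pass the threshold, an adjusted p under 0.05 over all 22245 genes tested. Over all genes, 11.7% were called higher and 12.3% lower. All changes were small, from a 1.18-fold rise for HSP90AB1 to a ratio of 0.910 for HSPA9. The median log2 fold change was 0.09 over the 10 genes and 0.0024 over all genes tested; without sh-NC replicate 2 the median of the 10 was 0.03. In CPM, both shMETTL14 cultures lay above both sh-NC cultures for 6 genes and below them for 3, against 29.4% and 29.1% of all genes tested. The genes are among the most highly expressed, where counting error is low, and their share was not set against that of genes of like level. In bulk libraries a change in RNA per cell and a change in the share of cells cannot be told apart.

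The HSP90 genes of this set were all higher. HSP90AB1 had 4262 and 4170 CPM in sh-NC against 4955 and 4967 CPM in shMETTL14, the arms lying well apart. Its log2 fold change was 0.23 (SE 0.0254, n = 2 against 2, adjusted p = 1.60e-07). HSP90B1 went from 1700 and 1646 CPM in sh-NC to 1867 and 1826 CPM in shMETTL14, a log2 fold change of 0.14 (SE 0.0284, adjusted p = 5.23e-04), again without overlap. For HSP90AA1 the values were 2010 and 1905 CPM in sh-NC against 2117 and 2060 CPM in shMETTL14; the gap between arms was narrower than the spread within sh-NC, with a log2 fold change of 0.09 (SE 0.0297, adjusted p = 0.0228). That call was lost with all 8 libraries in 1 model (adjusted p = 0.0542) and with no filter on low counts (adjusted p = 0.139).

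The HSP70 genes did not move together. HSPA5 had 614 and 599 CPM in sh-NC against 651 and 655 CPM in shMETTL14, a log2 fold change of 0.11 (SE 0.0306, adjusted p = 0.0110). HSPA9 was lower, with 732 and 692 CPM in sh-NC against 647 and 649 CPM in shMETTL14, a log2 fold change of -0.14 (SE 0.0321, adjusted p = 0.00264). The arms did not overlap for either gene. HSPA8 had 2051 and 1978 CPM in sh-NC against 2004 and 2018 CPM in shMETTL14, with both shMETTL14 values inside the sh-NC range. Its log2 fold change was -0.0023 with a 95% interval from -0.06 to 0.06 (adjusted p = 0.970), and its sign turned with library size scaling and without a filter on low counts.

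The subunits of the mitochondrial chaperonin moved in opposite directions. HSPD1 had 465 and 455 CPM in sh-NC against 422 and 436 CPM in shMETTL14, a log2 fold change of -0.10 (SE 0.0326, adjusted p = 0.0273). HSPE1 had 158 and 159 CPM in sh-NC against 170 and 173 CPM in shMETTL14, a log2 fold change of 0.12 (SE 0.0371, adjusted p = 0.0246). Neither pair of arms overlapped. HSPE1 shares exon bases with other genes: 281 of its 1977 lie in HSPD1 on the other strand, and 192 lie in the readthrough gene HSPE1-MOB4. The counts of HSPE1-MOB4 came to 91.6 to 99.8% of those of HSPE1. How reads on shared bases were counted is not known. Rows named as HSPE1 pseudogenes held 6.32 to 9.74% of its counts, and with them added the adjusted p was 0.0586.

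The HSP110 genes did not pass the threshold. HSPA4 had 388 and 366 CPM in sh-NC against 362 and 357 CPM in shMETTL14, a log2 fold change of -0.07 (95% interval -0.14 to 0.0019, adjusted p = 0.159). HSPH1 had 113 and 101 CPM in sh-NC against 114 and 114 CPM in shMETTL14, a log2 fold change of 0.10 (95% interval -0.00086 to 0.19, adjusted p = 0.151). In both genes the sh-NC cultures were further from each other than the shMETTL14 cultures were.

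HSP90AB1 passed the threshold in every fit that left out a culture, with a highest adjusted p of 0.0113, and HSP90B1 passed in all but the fit without shMETTL14 replicate 2 (adjusted p = 0.0548). Without shMETTL14 replicate 1 or 2, which leaves 1 shMETTL14 culture assumed to vary like the others, HSP90AA1 (adjusted p of 0.283 and 0.173), HSPA5 (0.104 and 0.180), HSPE1 (0.118 and 0.255), HSPA9 (0.0820 and 0.117) and HSPD1 (0.318 and 0.113) did not pass. Leaving out an sh-NC culture also ended the call of HSP90AA1 (log2 0.05, adjusted p = 0.199 without replicate 2), HSPE1 (0.0676 without replicate 1) and HSPD1 (0.115 without replicate 1). With no filter on low counts HSPE1 (0.0642), HSPA9 (0.107) and HSPD1 (0.169) did not pass either. Without sh-NC replicate 2 HSPA4 passed the threshold (log2 -0.11), and without sh-NC replicate 1 HSPH1 did (log2 0.18). With the other sh-NC culture left out instead, HSPA4 was at -0.03 (adjusted p = 0.668) and HSPH1 at 0.02 (adjusted p = 0.877).

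**Figure D2:**
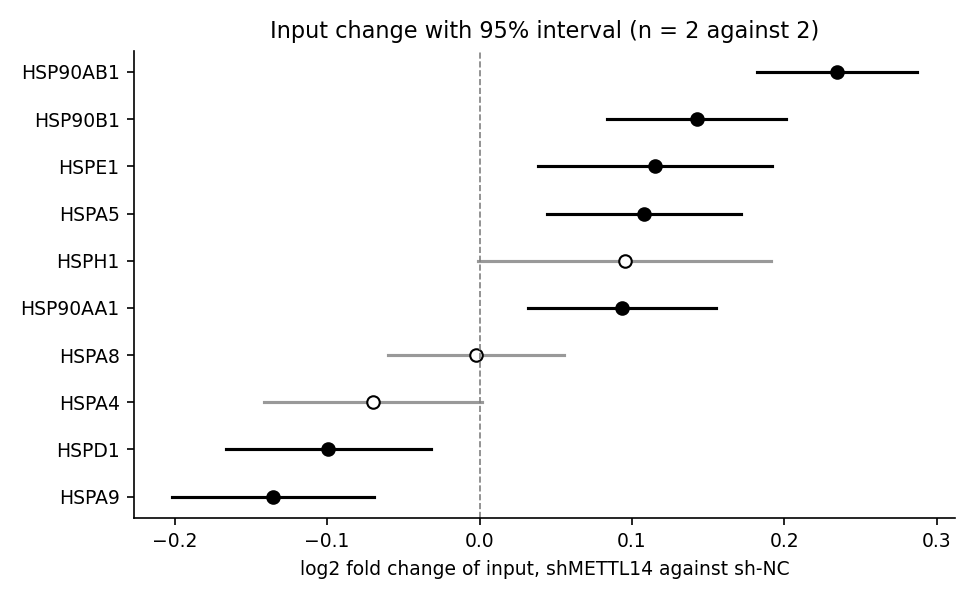
Log2 fold change of the input level, shMETTL14 against sh-NC, for each gene (points) with its 95% interval from edgeR (lines), 2 cultures per arm. Filled points have an adjusted p under 0.05: 5 genes, led by HSP90AB1 at 0.23, lie above 0 and 2, HSPA9 and HSPD1, below it; the intervals of the open points HSPH1, HSPA8 and HSPA4 include 0.

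Ratios between partners within a library do not depend on its depth. HSPE1 over HSPD1, lid over barrel, was 0.732 and 0.750 per length in the sh-NC inputs against 0.866 and 0.854 in the shMETTL14 inputs. HSP90AA1 over HSP90AB1, inducible over constitutive, was 0.268 and 0.259 in sh-NC against 0.243 and 0.236 in shMETTL14. The first ratio was higher in both shMETTL14 libraries and the second lower. HSPH1 over HSPA4 was 0.179 and 0.170 in sh-NC against 0.195 and 0.196 in shMETTL14, and HSP90B1 over HSPA5, the ER pair, was 2.31 and 2.29 in sh-NC against 2.39 and 2.32 in shMETTL14. The arms did not overlap in any of the 4 ratios, and the share of other gene pairs for which that holds was not computed. With 2 cultures per arm an exact two-sided permutation test of a single value cannot go below p = 0.333, so none was run.

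**Figure D3:**
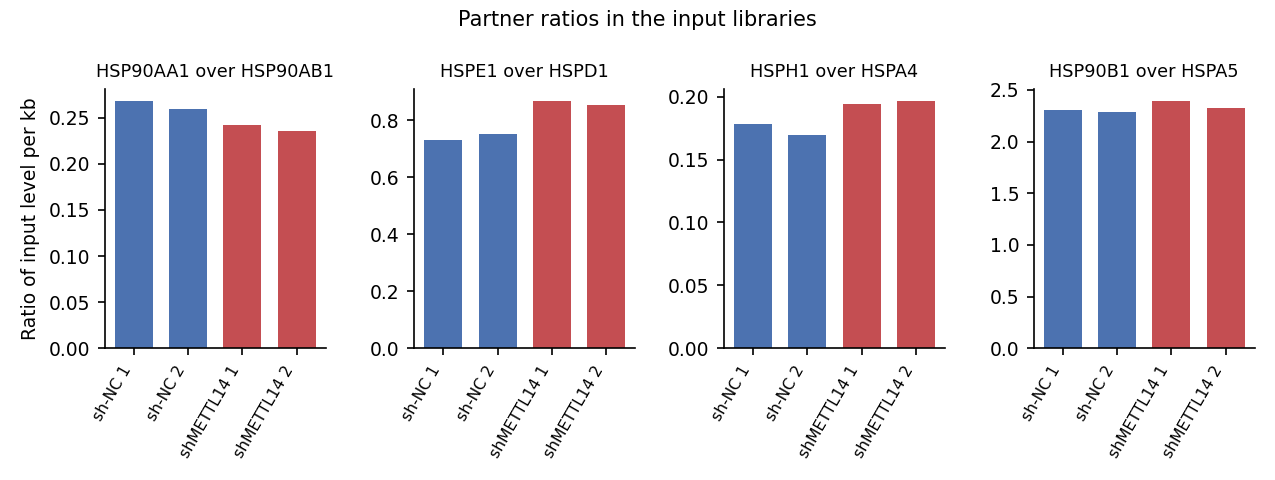
Ratio of the input level per kb of a gene to that of its partner, in each input library (bars; axes start at 0), with sh-NC in blue and shMETTL14 in red. HSPE1 over HSPD1 is higher in both shMETTL14 libraries (0.866 and 0.854) than in both sh-NC libraries (0.732 and 0.750), and HSP90AA1 over HSP90AB1 is lower.

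The IP over input, the ratio of CPM in the IP to CPM in the input of a culture, was above 1 in all 4 cultures for 9 of the 10 genes. It ranged from 0.938 for HSPE1 to 1.65 for HSP90B1. In the 8-library model 9 genes were called higher in IP and 0 lower in sh-NC, where 29.1% of all 22953 genes tested were called higher and 29.8% lower. The counts were also 9 and 0 in shMETTL14, against 28.9% and 29.1% of all genes. Those shares cover genes of all levels. At the high counts of most of the 10 genes small ratios can pass, and genes of like level were not compared. The median log2 IP over input of the 10 genes was 0.35 in sh-NC and 0.32 in shMETTL14, and over all genes it was -0.01 and -0.0083. Which genes lie above 1 depends on the scaling. Scaled instead on the genes least enriched in IP, the sh-NC medians were 1.26 for the 10 genes and 0.90 for all genes. That scaling called 16358 of all genes higher in sh-NC. Since the counts are per gene, the place of m6A within the transcripts cannot be read from them.

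HSP90B1 had the highest ratio in sh-NC, 1.44 and 1.65, and 1.54 and 1.48 in shMETTL14, with a log2 value of 0.63 (SE 0.0374, adjusted p = 2.05e-20) in sh-NC. HSPA9 followed with 1.40 and 1.54 in sh-NC against 1.49 and 1.50 in shMETTL14 (log2 0.56, SE 0.0357, adjusted p = 3.45e-19 in sh-NC). Both stood clearly above 1 in every library pair. HSP90AA1 gave 1.34 and 1.44 in sh-NC against 1.35 and 1.37 in shMETTL14, and HSPH1 gave 1.29 and 1.39 in sh-NC against 1.31 and 1.28 in shMETTL14. HSPA4 gave 1.21 and 1.37 in sh-NC against 1.34 and 1.28 in shMETTL14. These genes overlapped between the arms.

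HSPA5 had ratios of 1.24 and 1.27 in sh-NC against 1.22 and 1.18 in shMETTL14, and HSP90AB1 had 1.18 and 1.33 in sh-NC against 1.12 and 1.15 in shMETTL14. These were the 2 genes of the 10 whose shMETTL14 cultures lay both below the sh-NC cultures; none had both above, and the shares over all genes were 17.4% and 17.3%. The lowest ratios above 1 belonged to HSPD1, at 1.14 and 1.16 in sh-NC against 1.16 and 1.12 in shMETTL14, and to HSPA8, at 1.10 and 1.17 in sh-NC against 1.17 and 1.13 in shMETTL14. Scaled by library size alone, which shifted the median log2 of all genes to -0.14 in sh-NC, HSPA8 and HSPD1 did not pass there (adjusted p = 0.134 and 0.0588), nor did HSPD1 in shMETTL14 (adjusted p = 0.0898).

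HSPE1 was the exception, with ratios just under 1 in all cultures: 0.969 and 0.961 in sh-NC against 0.965 and 0.938 in shMETTL14. Its log2 value was -0.05 (SE 0.0400, adjusted p = 0.283) in sh-NC and -0.07 (SE 0.0397, adjusted p = 0.118) in shMETTL14. It was called lower in both arms with library size alone, and in shMETTL14 with at least 10 counts in every library, with pseudogenes added, with that arm's libraries alone or without sh-NC replicate 1. With factors from the least enriched genes, which moved the median of all genes up to 0.90 in sh-NC, its log2 value was 0.87, under that median. HSPE1 overlaps the readthrough gene HSPE1-MOB4, whose counts came to 91.6 to 99.8% of those of HSPE1. The part of that overlap in the HSPE1 ratios was not tested.

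**Figure D4:**
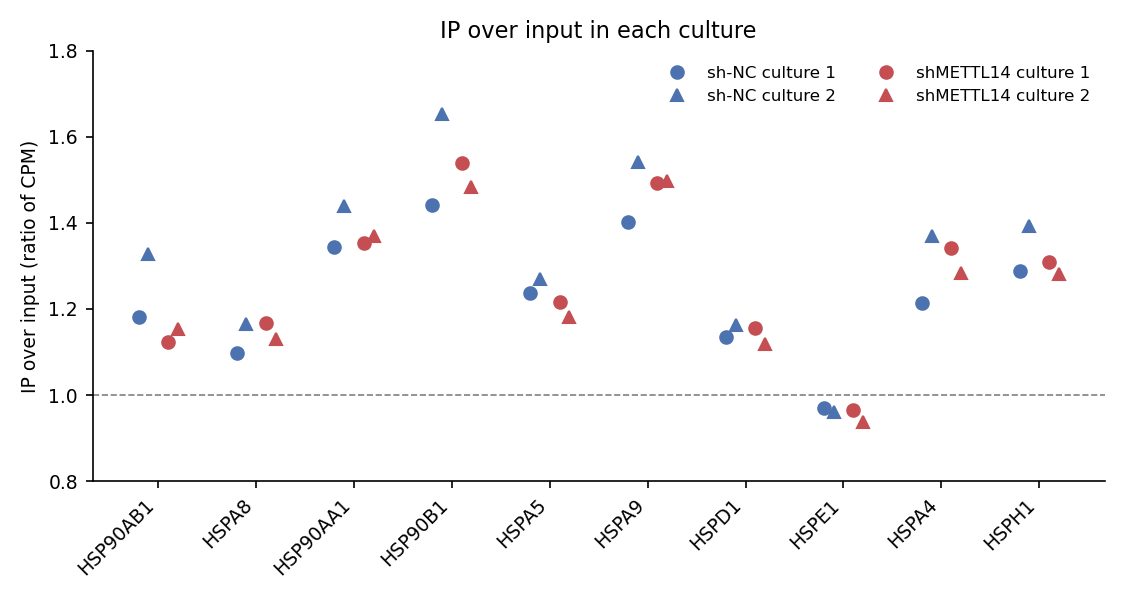
IP over input of each gene in each culture (ratio of CPM; dashed line at 1), circles for culture 1 and triangles for culture 2, sh-NC in blue and shMETTL14 in red. HSPE1 lies under 1 in all 4 cultures and the other 9 genes above it, with HSP90B1 and HSPA9 highest; the axis does not start at 0.

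The difference between arms in IP over input, tested as an interaction in the same model, passed the threshold for 0 of the 10 genes with edgeR and 0 with DESeq2. Of all genes tested, 0% were called higher and 0.00436% lower, which is 1 gene, and 6.34% had an unadjusted p under 0.05. Each library was scaled to its typical gene, so only a change relative to other genes can be seen in this test. The paper reports a fall in total m6A after the knockdown. A fall shared by most genes would be scaled away here and was not tested. HSP90AB1 was the 1 chaperone with an edgeR p under 0.05 before adjustment. Its log2 change was -0.14 (SE 0.0492, 95% interval -0.24 to -0.04, adjusted p = 0.629). The sh-NC cultures differed in this gene, with ratios of 1.18 and 1.33: without sh-NC replicate 1 its change was -0.24 (adjusted p = 5.72e-05), without sh-NC replicate 2 it was -0.05 (adjusted p = 0.799), and with no filter on low counts it was -0.15 (adjusted p = 0.0229).

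For the other 9 genes the log2 change ran from -0.06 in HSPA5 (95% interval -0.16 to 0.04) to 0.03 in HSPA4 (-0.08 to 0.14). The widest of these intervals, that of HSPH1, ran from -0.17 to 0.08. The median was -0.03 over the 10 genes and -0.0014 over all genes; for the 10 it was -0.09 without sh-NC replicate 1 and 0.01 without sh-NC replicate 2. For 9 of the 10 genes the ratio was lower in sh-NC culture 1 than in culture 2, HSPE1 being the exception. The IP library of sh-NC culture 1 was the deepest of the 8, with 47205265 counts, and its part in that difference was not tested.

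The wider chaperone network was described through 149 other genes in 11 lists, of which 144 were tested in the input. There 34 were higher in shMETTL14, 23 were lower and 87 did not pass, with a median log2 fold change of 0.04, where 11.7% of all genes were called higher and 12.3% lower. For the change of IP over input 0 of 145 list genes passed with edgeR or with DESeq2, and 12 had an edgeR p under 0.05 before adjustment. Without shMETTL14 replicate 2 the counts in the input were 10 and 6 (over all genes 656 and 925), and without shMETTL14 replicate 1 they were 18 and 7 (over all genes 1355 and 1523).

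Among 11 other HSP70 and HSP110 genes, 1 was higher and 2 were lower. HYOU1, an HSP110 relative of the endoplasmic reticulum, had 568 and 559 CPM in sh-NC against 696 and 704 CPM in shMETTL14, a log2 fold change of 0.31. The lower genes were HSPA2 (log2 -0.43), an HSP70 abundant in testis, and HSPA1A (log2 -0.12), the inducible HSP70, whose near-identical copy HSPA1B stood at -0.01 and did not pass. Reads of HSPA1A and HSPA1B cannot be separated with certainty. Of 40 J-domain proteins tested 12 were higher and 5 lower. DNAJB6, which suppresses protein aggregation, went from 83.5 and 79.4 CPM to 118 and 116 CPM. DNAJB5 (0.43) and DNAJC6 (0.42) were higher too, while DNAJB9 (-0.31) and DNAJC1 (-0.22) were lower.

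Of 10 nucleotide exchange factors 2 were higher, GRPEL1 (log2 0.22), which serves HSPA9, and BAG1 (0.17), and 2 were lower, BAG2 (-0.36) and BAG3 (-0.20). Of 22 HSP90 cochaperones 6 were higher and 4 lower. CDC37, which brings kinases to HSP90, had 457 and 463 CPM in sh-NC against 552 and 557 CPM in shMETTL14 (log2 0.27). CDC37L1 (0.37) and TSC1 (0.22) were higher as well. The largest falls in this list were those of CACYBP (log2 -0.84), from 178 and 172 CPM to 96.4 and 99.1 CPM, and of PTGES3 (-0.68), the cochaperone p23, from 279 and 273 CPM to 169 and 176 CPM. STUB1, a ubiquitin ligase that binds HSP70 and HSP90, was at -0.22.

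The cytosolic chaperonin TRiC, the counterpart of the HSPD1 and HSPE1 complex, had 1 subunit higher, CCT3 (log2 0.08, not called with the culture number as a block), and 4 lower of 8. CCT5 had the largest fall, from 519 and 512 CPM to 359 and 361 CPM (log2 -0.52), and CCT8 (-0.14) and CCT6A (-0.11) were lower too. For IP over input in sh-NC 5 of its 8 subunits were lower and 1, CCT8, higher, beside 29.8% and 29.1% of all genes, with a median log2 value of -0.38; a difference from the 10 genes was not tested. Of 6 prefoldin subunits, which hand clients to TRiC, PFDN2 was higher (log2 0.30) and 5 did not pass. Among 7 small heat shock proteins tested HSPB1 was lower (-0.20) and 6 did not pass. HSF1, the factor that binds the heat shock element, was higher (0.22), and HSBP1, which binds HSF1, was lower (-0.20), while the other 2 genes tested in that list did not pass.

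In the list for folding and the unfolded protein response of the endoplasmic reticulum, 8 of 25 genes were higher and 3 lower. ERO1A, an oxidase that feeds disulfide formation, was at log2 0.46, PPIB, a prolyl isomerase, at 0.31 and MANF at 0.26. The lower genes were HERPUD1 (-0.27), which takes part in the removal of misfolded proteins, and XBP1 (-0.24) and ATF6 (-0.19), both transcription factors of the response. In the mitochondrial list of 16 tested genes 3 were higher, TIMM44 (0.22), GRPEL1 and the protease subunit SPG7 (0.13), and 2 lower, TRAP1 (-0.16), the mitochondrial HSP90, and the J-domain protein DNAJA3 (-0.15). In sh-NC the log2 IP over input of TRAP1 was -1.03, whereas HSP90AA1, HSP90AB1 and HSP90B1 stood at 0.47, 0.33 and 0.63.

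**Figure D5:**
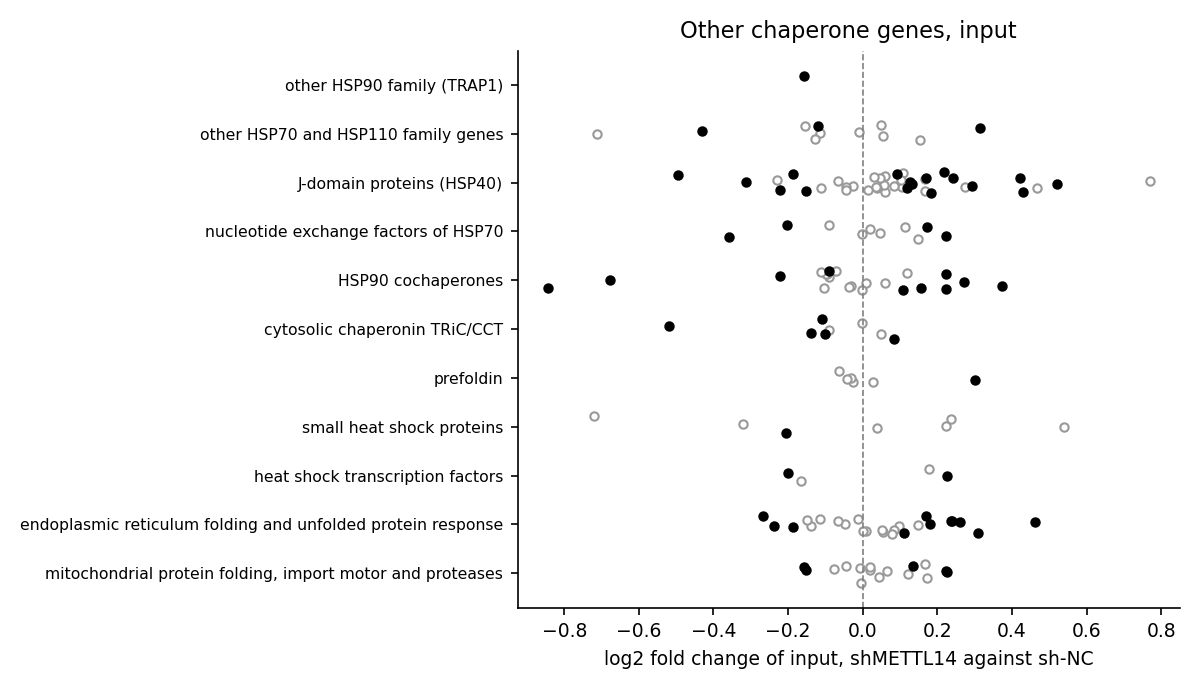
Log2 fold change of the input level, shMETTL14 against sh-NC, of each tested gene (points) in the 11 lists of other chaperone genes; filled points have an adjusted p under 0.05. Most lists hold genes on both sides of 0, with 34 filled points higher and 23 lower over the distinct genes, and the lowest filled point is CACYBP at -0.84.

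As a description of the pattern over the 8 libraries, the tested gene with the log2 CPM most like each chaperone was found by Pearson correlation, and it is named for 9 of the 10. The values, over 8 libraries that share 2 arms and the split into IP and input, ran from 0.991 to 0.999. Each is the highest over 22953 tested genes, so high values alone show no relation. The highest values of other genes were not computed. The nearest gene was EIF4G1 for HSP90AB1, CSPP1 for HSP90B1, WTAP for HSPA8, PANK1 for HSPA5, MSH6 for HSPA9 and PABPC4L for HSPD1. It was ERO1A for HSPE1, RP11-190A12.8 for HSPA4 and RP11-212P7.3 for HSPH1. Among the 10 genes themselves HSP90AA1 and HSP90B1 were the most alike (r = 0.992). HSPE1 stood apart, its highest correlation with another of the 10 being 0.0051, with HSP90AB1. The part of the overlap of HSPE1 with HSPE1-MOB4 in that value was not tested.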

How the data were processed

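The authors deposited raw counts per gene for 8 MeRIP-seq libraries, 1 IP and 1 input from each of 2 cultures per arm. The labels name Trimmomatic 0.36 and GRCh38, and describe stranded libraries with unique molecular identifiers; the aligner, the counter and the handling of duplicates are not given in the sources used here. The strand setting of the counting is not given either, so counts of overlapping genes are uncertain. Library depth was 32027379 to 47205265 counts, and the precision is set by 2 cultures per arm. No 2 libraries of a group differed by as little as sampling noise (chi-square per gene of 2.40 to 3.85).

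Counts were tested in R 4.3.3 with edgeR 4.0.16 (filterByExpr, TMM, glmQLFit, glmQLFTest) and Benjamini-Hochberg adjustment over all genes tested at 0.05. The input comparison used the 4 input libraries; IP over input and its change used 1 model of 8 libraries with 4 group means. CPM used TMM factors, and log2 CPM a prior count of 2. The scripts were tested on simulated data. The chaperones, lists and tests were chosen with earlier results of these data known. Genes named are the chaperones, METTL14, readthrough or overlapping genes and the most similar gene of each. Up to 3 rises and 3 falls per list with a mean of at least 50 input counts are named too. HSPA1B, a near-identical copy, was named after its values were seen. A few genes that this rule names are not reported here. The alternatives tried were RLE factors, scaling by library size alone, factors from the 25% least enriched genes in IP, DESeq2 1.42.0, 2 filters on low counts, pseudogenes summed, overlapping genes dropped, a replicate block, other sets of libraries and each culture left out. Promoter windows came from RefSeq. Figures were drawn with matplotlib 3.10.9.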

Additional observations from a re-analysis of the deposited data

How the results depend on the processing

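Dropping genes whose exons overlap another gene, which keeps 5 of the 10 chaperones, left 2 higher and 1 lower in input and 5 higher for IP over input in each arm. Of all 11325 genes tested there in input, 1274 were higher and 1442 lower. Of 11814 tested for IP over input, 3272 were higher in sh-NC and 3223 in shMETTL14. With no filter on low counts 3 chaperones were higher and 0 lower in input, and 1 was lower for the change of IP over input (all genes: 1082 and 1072 called in input, 12 lower for the change). Leaving out 1 culture gave 1 to 5 higher and 0 to 3 lower in input, 0 to 1 lower for IP over input in shMETTL14 and 0 to 1 lower for its change. HSPE1 made 1 lower for IP over input with library size alone in both arms and, in shMETTL14, with at least 10 counts, pseudogenes summed or that arm's libraries alone. Without these alternatives, 29.8% of all 22953 genes tested were called lower for IP over input in sh-NC and 29.1% in shMETTL14. Beside those shares, 1 lower of the 10 chaperones is not an excess. Factors from the least enriched genes turned HSPE1 to 0.87 and 0.79 in the arms, and the change of HSPA8, HSPA9 and HSPA4 to -0.0375, -0.0347 and -0.0346; they called 16358 genes higher and 1071 lower in sh-NC, and 15982 and 1106 in shMETTL14. HSPA8 in input turned to 0.0046 with library size alone and 0.012 with no filter, and ran from -0.031 to 0.024 over cultures left out. The change of IP over input, over cultures left out, ran from -0.0986 to 0.0187 in HSP90AA1, -0.24 to -0.05 in HSP90AB1, -0.147 to 0.0681 in HSP90B1, -0.0375 to 0.0643 in HSPA8, -0.0605 to 0.0924 in HSPA9, -0.0798 to 0.111 in HSPA4, -0.0517 to 0.0076 in HSPD1, -0.12 to 0.0082 in HSPH1 and -0.0026 to 0.19 in METTL14. The cause of these shifts was not tested. Deviations of same-numbered inputs of the arms correlated by -0.01. Those of the IP and input of a culture, which come from the same RNA, correlated by only 0.0040 and 5.70e-05. Since this check did not find a known pair, it cannot say whether the culture numbers pair samples of different arms. The replicate block gave 5 higher and 2 lower in input, as without it, and changed no call of the 10 genes; of the list genes it called 32 higher and 23 lower, against 34 and 23, with 0 in place of 1 TRiC subunit higher. The list genes called higher and lower in input numbered 17 and 6 with no filter and 16 and 15 with overlapping genes dropped, where 1274 and 1442 of all genes were called. Leaving out a culture gave 656 to 2366 genes higher and 925 to 2590 lower in input, and 0 to 116 lower for the change, 116 without sh-NC replicate 1. Other transcript lengths were not run, since no annotation of transcripts was used here. The effect of depth was not tested; HSPH1, whose sh-NC cultures had 113 and 101 CPM, had the fewest counts and the widest interval in input.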
